A study of Mus musculus with 32 samples.

Results

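Transcript levels of 10 genes of the brain endothelium and its barrier were followed in developing mouse brain: Pecam1, Cdh5, Kdr, Cldn5, Mfsd2a, Slc2a1, Slco1c1, Abcb1a, Abcg2 and Plvap. They were taken by symbol from the 55291 genes counted, and all 10 were found and passed the filter on low counts in every comparison. The smallest count of any of them in a library was 36. Each library came from the whole brain of a C57BL/6J mouse that was either wild type (WT, Dhcr7+/+) or a knockout (KO, Dhcr7-/-). Brains came from 4 ages, of which E12.5, E14.5 and also E16.5 are days of embryonic life and PND0 is that of birth, with 4 libraries per genotype and stage and 32 in all. Dhcr7 is the reductase that turns 7-dehydrocholesterol into cholesterol, and people with too little of its activity have Smith-Lemli-Opitz syndrome. Polyadenylated RNA was sequenced. The labels do not state the litter or sex of an animal or the date of a library, so the spread between libraries may be partly technical.

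Brain capillaries differ from most other vessels in that their endothelial cells are sealed by tight junctions, have few transport vesicles and carry nutrients through dedicated transporters. Vessels enter the mouse brain as permeable sprouts. They acquire these barrier features during the second part of gestation, in response to Wnt ligands from neural progenitors and to contact with pericytes, while the vesicle protein Plvap is lost. Pecam1 and Cdh5 mark endothelium of all organs, so that the other genes can be read beside them. Endothelial cells are a small part of the brain, and in whole-brain RNA fewer endothelial cells and less RNA per cell cannot be told apart.

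The libraries held 13.87 M to 28.32 M counts. Dhcr7 was between 58.6 and 102 CPM (counts per 1 M counts of the library) in the 16 WT libraries and between 11.5 and 26.7 CPM in the 16 KO libraries, so that no library went against its label. All CPM values given here are on a single scale over the 32 libraries. At E12.5 the genes of tissue around the brain were high and uneven. The summed level of 9 meningeal and fibroblast genes was 1491 to 3413 CPM in WT and 715 to 2811 CPM in KO at E12.5, against 548 to 969 CPM in all later libraries. The sum of 9 red blood cell genes was 1968 to 9040 CPM in WT and 1593 to 4814 CPM in KO at E12.5. At PND0 that sum was 197 to 263 CPM in WT and 230 to 2265 CPM in KO.

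Promoter sequences are given for Slco1c1, Cldn5 and Abcb1a, the 3 genes that were higher at PND0 than at E12.5 in WT. Each is the 250 bases before the RefSeq start on build GRCm38.p6, written 5′ to 3′ on the strand of the gene, all 3 on the plus strand. The Slco1c1 window is at chr6:141524104-141524353, the Cldn5 window at chr16:18776597-18776846 and the Abcb1a window at chr5:8566841-8567090. Capitals mark matches, on either strand, to 6 short sequences: CCGGAA and AGGAAG (ETS factors), ACAAAG and ACAATG (SOX factors), CTTTGA (LEF and TCF factors, the nuclear effectors of Wnt signalling) and GGGCGG (SP and KLF factors).
Slco1c1: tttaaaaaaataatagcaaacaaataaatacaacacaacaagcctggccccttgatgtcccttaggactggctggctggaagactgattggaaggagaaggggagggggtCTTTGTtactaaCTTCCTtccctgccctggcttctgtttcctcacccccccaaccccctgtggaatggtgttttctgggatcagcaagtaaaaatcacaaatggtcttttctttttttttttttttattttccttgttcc
Cldn5: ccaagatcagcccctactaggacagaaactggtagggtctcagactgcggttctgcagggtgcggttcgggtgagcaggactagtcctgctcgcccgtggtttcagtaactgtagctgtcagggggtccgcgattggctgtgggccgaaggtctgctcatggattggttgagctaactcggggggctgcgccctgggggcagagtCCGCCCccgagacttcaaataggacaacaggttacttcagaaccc
Abcb1a: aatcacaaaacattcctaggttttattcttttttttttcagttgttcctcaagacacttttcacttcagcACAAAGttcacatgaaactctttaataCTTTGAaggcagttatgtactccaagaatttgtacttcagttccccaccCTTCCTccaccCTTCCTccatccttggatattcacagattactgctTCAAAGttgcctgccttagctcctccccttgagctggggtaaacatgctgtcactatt

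The Slco1c1 window held 1 match to AGGAAG, with its first base at position -128 counted from the start, and 1 to ACAAAG at -140, both on the opposite strand. The Cldn5 window held none of the ETS, SOX or LEF/TCF sequences and 1 match to GGGCGG at -45. The Abcb1a window held 2 matches to AGGAAG (-104 and -93), 1 to ACAAAG (-180) and 2 to CTTTGA (-153 and -58). Its RefSeq start lies 93.0 kb before the start of the gene in the GENCODE M21 annotation. Of 32851 RefSeq promoters of the same length, 29.5% held AGGAAG, 12% CCGGAA, 10.7% ACAATG, 13.8% CTTTGA and 32.7% GGGCGG, and 5408 of the 32851 held ACAAAG. GC content was 42.8% in the Slco1c1 window, 59.6% in that of Cldn5 and 40.4% in that of Abcb1a, against a median of 52.4% over all promoters. These matches are a description of the letters and do not show binding.

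In WT brain the 10 genes did not move as 1 group. From E12.5 to PND0, Slco1c1, Abcb1a and Cldn5 rose, Plvap, Pecam1 and Cdh5 fell, and Kdr, Mfsd2a, Slc2a1 and Abcg2 did not pass the test. A gene was called where the Benjamini-Hochberg adjusted p of edgeR's quasi-likelihood test, over all genes tested, was under 0.05. Stage changes were widespread over the genome. Over this span 34.5% of all genes tested were higher at PND0 and 36.4% lower, so that 3 higher and 3 lower of 10 are no more than the background. The sum of the 10 genes stayed between 346 and 405 CPM in the embryonic libraries and was 384 to 474 CPM at PND0. The labels give no preparation date, so stage and preparation cannot be told apart.

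**Figure D1:**
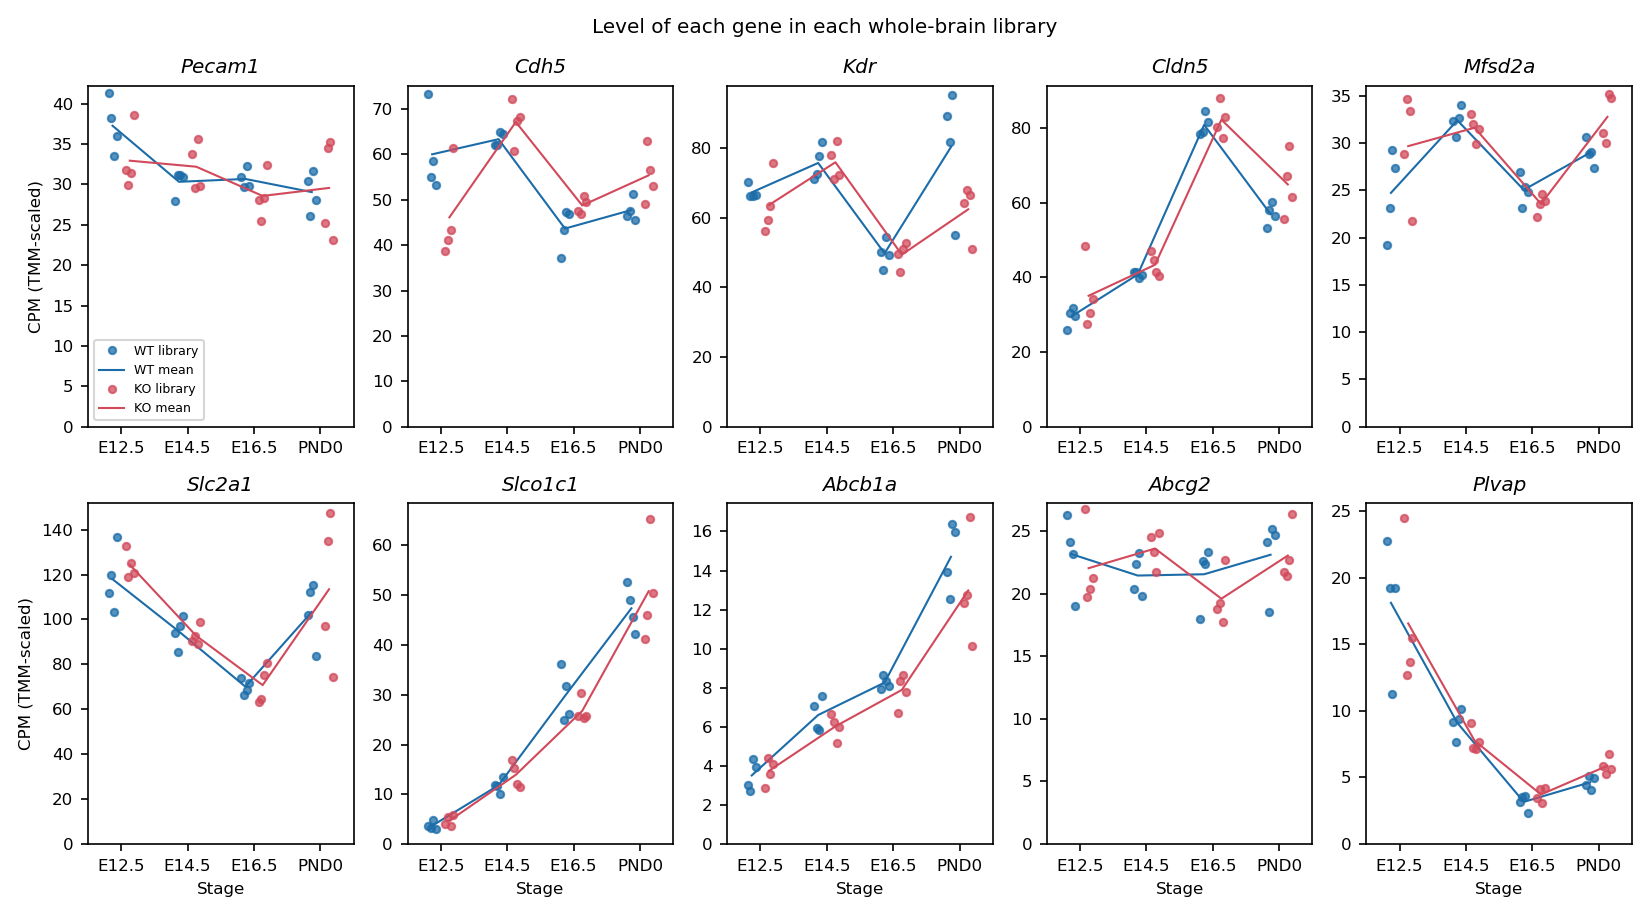
Level of each of the 10 genes in each library, in CPM on a linear axis from 0, against stage; points are libraries, blue for WT and red for KO, and lines join the 4-library means. Slco1c1 and Abcb1a climbed at every stage, Cldn5 peaked at E16.5, Plvap was lowest at E16.5, and KO and WT overlapped at every stage of every panel except for Plvap at PND0.

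Slco1c1, which carries thyroxine and organic anions across the capillary wall, had the steepest course. Its WT libraries gave 3.68, 3.23, 4.89 and 2.94 CPM at E12.5, then 11.96, 11.7, 10.2 and 13.4 CPM at E14.5. At E16.5 they gave 36.3, 24.97, 31.7 and 26.1 CPM, and at PND0 52.7, 49.1, 45.6 and 42.2 CPM. No 2 stages overlapped. The mean at PND0 was 12.9 times that at E12.5 (log2 fold change 3.72, SE 0.16, edgeR adjusted p = 2.94e-08, n = 4 and 4). The steps were 1.66, 1.35 and 0.64 on the log2 scale, and each passed the threshold, also with each library left out in turn.

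Abcb1a encodes P-glycoprotein, the pump that returns many drugs and lipophilic compounds to the blood. It rose from 3.01, 2.74, 4.37 and 3.93 CPM at E12.5 to 13.9, 12.6, 16.4 and 15.98 CPM at PND0 in WT. In between it was at 7.05, 5.95, 5.83 and 7.59 CPM at E14.5 and at 7.94, 8.66, 8.37 and 8.10 CPM at E16.5. Neighbouring stages did not overlap, and the span gave a log2 fold change of 2.09 (SE 0.18, edgeR adjusted p = 1.73e-06). The steps were 0.88, 0.35 and 0.80. The middle one, at edgeR adjusted p = 0.0275, was lost in 6 of 14 alternatives, with adjusted p up to 0.0834, among them the fits without E14.5 WT replicate 2 or 3 and without E16.5 WT replicate 2 or 3. Abcb1b, the near copy beside it on chromosome 5 (8798147 to 8866315), stayed between 0.248 and 1.74 CPM in all 32 libraries and passed no test. Reads that fit both copies could be split between them by the counting.

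Cldn5, the main claudin of brain tight junctions and a gene of 1 exon, rose and then fell. It was at 25.9, 30.6, 31.9 and 29.8 CPM at E12.5 and at 41.4, 41.5, 39.7 and 40.6 CPM at E14.5. It reached 78.3, 79.1, 84.5 and 81.7 CPM at E16.5 and stood at 53.2, 58.0, 60.1 and 56.6 CPM at PND0. All 4 stages stood apart. The rise from E14.5 to E16.5 was 1.01 on the log2 scale (SE 0.054, edgeR adjusted p = 1.14e-09), and the fall to PND0 was -0.53 (SE 0.069, edgeR adjusted p = 1.73e-05).

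Plvap forms the diaphragms of fenestrae and transport vesicles and marks permeable endothelium. It fell from 22.7, 19.3, 11.3 and 19.2 CPM at E12.5 to 9.15, 7.65, 9.41 and 10.2 CPM at E14.5 and to 3.16, 3.57, 3.65 and 2.30 CPM at E16.5 in WT. At PND0 it was at 4.41, 5.13, 4.08 and 4.93 CPM. The stages did not overlap. The steps were -1.02 (SE 0.20, edgeR adjusted p = 0.00166), -1.49 (SE 0.16, edgeR adjusted p = 8.55e-07) and 0.52 (SE 0.20, edgeR adjusted p = 0.0433). The rise to PND0 was lost in 10 of 14 alternatives, with adjusted p up to 0.141. The fall was kept in all 14 at both earlier steps. Summed meningeal and fibroblast genes and summed red blood cell genes were also highest at E12.5. Their part in the first fall was not tested.

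Pecam1, an adhesion molecule of endothelial contacts, was nearly level after a first drop. It went from 41.3, 38.3, 33.5 and 36.1 CPM at E12.5 to 28.0, 31.1, 31.2 and 31.0 CPM at E14.5 (log2 fold change -0.32, SE 0.079, edgeR adjusted p = 0.00539). It stayed between 26.1 and 32.3 CPM at E16.5 and PND0, where neighbouring stages overlapped. Cdh5, the cadherin of endothelial adherens junctions, was at 73.3, 55.0, 58.6 and 53.2 CPM at E12.5 and at 62 to 64.9 CPM at E14.5, which overlap. It then fell to 37.2, 43.3, 47.2 and 47.0 CPM at E16.5 (log2 fold change -0.52, SE 0.071, edgeR adjusted p = 1.33e-05) and overlapped with that level at PND0, at 45.5 to 51.4 CPM. Its fall over the whole span, -0.30 (SE 0.11, edgeR adjusted p = 0.027), was lost without E12.5 WT replicate 1 (-0.19, adjusted p = 0.0596), the library with the highest Cdh5. It was also lost without PND0 WT replicate 1, 2 or 4 (adjusted p 0.0613 to 0.0663).

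Kdr, the main VEGF receptor of sprouting endothelium, dipped at E16.5. Its libraries gave 66.2 to 70.2 CPM at E12.5 and 71.1 to 81.7 CPM at E14.5. They then gave 44.9 to 54.6 CPM at E16.5 and 89.2, 81.8, 95.3 and 55.1 CPM at PND0. The fall to E16.5 was -0.58 (SE 0.069, edgeR adjusted p = 2.53e-06) and the rise to PND0 was 0.66 (SE 0.14, edgeR adjusted p = 0.00167). PND0 WT replicate 4 was far below the other 3, as it was for Dhcr7 (60.0 against 96.9 to 102 CPM) and Flt1, another VEGF receptor (33.9 against 63.1 to 73.0 CPM). Without it the Kdr difference between E12.5 and PND0, 0.28 (SE 0.14, edgeR adjusted p = 0.0947), became 0.43 and passed the test (adjusted p = 7.06e-04).

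Slc2a1, the GLUT1 glucose transporter, also made by glia and by fetal red blood cells, went down and up again. It was at 112, 120, 103 and 137 CPM at E12.5 and at 85.6 to 102 CPM at E14.5. It reached 66.3 to 73.9 CPM at E16.5, and the PND0 libraries were at 102, 112, 115 and 83.6 CPM. The steps were -0.34 (edgeR adjusted p = 0.00551), -0.41 (edgeR adjusted p = 3.01e-05) and 0.53 (edgeR adjusted p = 2.44e-04), and the span did not pass (-0.16, SE 0.11, adjusted p = 0.219). Mfsd2a, the carrier of lysophosphatidylcholine with docosahexaenoic acid that restrains vesicle transport, stayed within 19.2 to 34.0 CPM. It was higher at E14.5 than at E12.5 (0.36, edgeR adjusted p = 0.0176) and lower at E16.5 than at E14.5 (-0.35, edgeR adjusted p = 7.21e-04). The first of these was lost without E12.5 WT replicate 2 (adjusted p = 0.0511). Abcg2, the breast cancer resistance protein that exports drugs and urate, had means of 21.4 to 23.2 CPM at the 4 stages, with overlap between all neighbours and no step past the threshold.

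By step, 4 of the 10 genes were higher and 3 lower from E12.5 to E14.5, where 27.3% of all genes were higher and 30.5% lower. From E14.5 to E16.5 there were 3 higher and 5 lower, against 29.3% and 28.2% of all genes. From E16.5 to PND0 there were 5 higher and 1 lower, against 26% and 27.2%. Per kb of exon, at E12.5 in WT, Slc2a1 was highest at 33.6 CPM per kb, ahead of Cldn5 (20.9), Cdh5 (14.3), Mfsd2a (10.99), Plvap (9.12), Kdr (7.46), Pecam1 (5.99) and Abcg2 (2.84). Slco1c1 (0.711) and Abcb1a (0.641) were last. At PND0 Cldn5 was first at 40.2 CPM per kb, Slco1c1 stood at 9.13 beside Kdr at 8.90, and Plvap was last at 2.33 below Abcb1a at 2.68. The length is the union of annotated exons, which overstates it for genes with rarely used exons.

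Since the brain also gains other cells, each gene was set against the mean of log2 Pecam1 and log2 Cdh5 in the same library, as a description with no test. In WT the mean log2 ratio of Slco1c1 rose by 4.01 (-3.66 at E12.5 to 0.34 at PND0), that of Abcb1a by 2.39 (-3.73 to -1.34) and that of Cldn5 by 1.82 up to E16.5 (-0.67 to 1.14). That of Plvap went from -1.42 at E12.5 to -3.50 at E16.5 and -2.98 at PND0. Mfsd2a ended 0.58 above its start, Kdr 0.56, Abcg2 0.33 and Slc2a1 0.14. The courses of Slco1c1, Abcb1a, Cldn5 and Plvap had the same shape in this ratio as in CPM. The highest WT stage mean was only 1.28 times the lowest for Pecam1 and 1.45 times for Cdh5. Division by them could thus hardly change these shapes, and the likeness is no separate evidence. Such a ratio scales for endothelial content only. It does not remove transcripts that other cells may make, and their part was not tested.

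**Figure D2:**
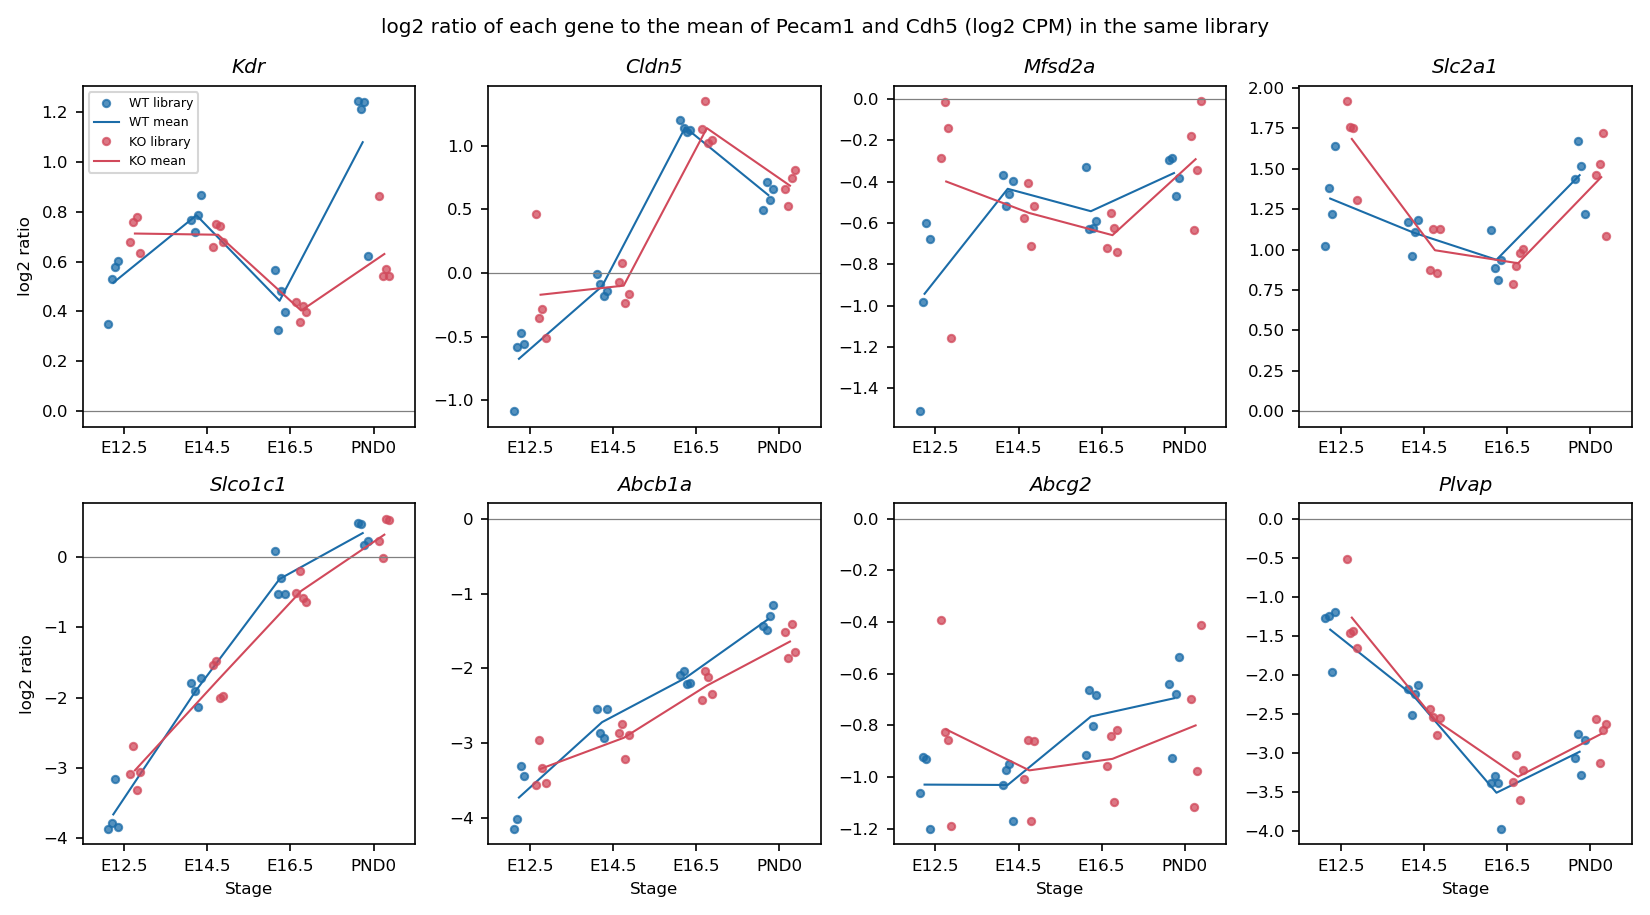
Log2 ratio of 8 genes to the mean of Pecam1 and Cdh5 (log2 CPM) in the same library, against stage; points are libraries, lines join group means, the grey line is a ratio of 0 and each panel has its own scale. Slco1c1 rose from a WT mean of -3.66 to 0.34 while Plvap fell from -1.42 to -2.98, and the genotypes were apart only for Kdr at E12.5.

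The other vascular genes of WT brain were described by list, with the median change from E12.5 to PND0 beside that of all genes tested, -0.047 on the log2 scale. Over this span 34.5% of all genes tested were higher and 36.4% lower. Of 20 further barrier transporters and enzymes, 14 rose, 2 fell and 4 did not pass, with a median of 0.96. Slc22a8, an organic anion transporter of the capillary wall and choroid plexus, rose from 1.56 ± 0.68 to 29.9 ± 4.55 CPM (SD, n = 4), and Lrp1, a lipoprotein and amyloid receptor that many brain cells make, from 456 ± 22.9 to 980 ± 12.48 CPM. The 2 that fell were Tfrc and Insr, the transferrin and insulin receptors. Over the same span 6 of 10 choroid plexus genes rose and 2 fell (median 1.39), and the sum of the 10 went from 234 to 310 CPM at E12.5 to 348 to 643 CPM at PND0. Of 7 astrocyte genes 6 rose (median 2.10), with sums of 363 to 423 CPM and 634 to 815 CPM. Both cell types make some of these transporters, and their part in the rise was not tested.

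Of 18 pan-endothelial genes 4 rose, 8 fell and 6 did not pass, with a median of -0.38. Cd34 and Emcn, surface glycoproteins of endothelium, fell from 41.2 ± 5.43 to 19.9 ± 1.21 CPM and from 11.1 ± 2.47 to 4.58 ± 0.99 CPM (SD, n = 4), and Flt1 rose from 21.2 ± 2.47 to 58.4 ± 16.9 CPM. Of 11 junction genes 2 rose (Ocln, the tight junction protein occludin, and the adhesion molecule Esam), 5 fell and 4 did not pass, with a median of -0.36. Among the 5 were Jam2, Cldn12, Ctnnb1 and Tjp1, of which Ctnnb1 at a mean of 1049 CPM at E12.5 is made by nearly all brain cells.

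Of 17 genes of Wnt control over brain vessels 1 rose, 9 fell and 7 did not pass, with a median of -0.41. The one that rose was the ligand Ndp, and the co-receptor Lrp6 and the feedback target Axin2 were among those that fell (137 ± 16.46 to 59.5 ± 2.31 CPM and 98.1 ± 14.6 to 50.5 ± 6.55 CPM, SD, n = 4). By step, 6 of the 17 fell and 3 rose to E14.5, 12 fell and 0 rose to E16.5, and 1 fell and 4 rose to PND0, by edgeR. Of all genes tested 30.5% fell and 27.3% rose to E14.5. The shares were 28.2% and 29.3% to E16.5, and 27.2% and 26% to PND0. The called genes of this list differed between steps: Lrp6 fell in the first (-0.75) and the last (-0.58) and did not pass in the middle one (0.10). The summed level of 8 neural progenitor genes also fell in WT, from a median of 2403 CPM at E12.5 to 937 CPM at PND0. Its part in the falls of the Wnt list was not tested. By contrast with Plvap, which heads the 10 genes of permeable or sprouting endothelium, the caveolar genes Cav1 and Cav2 rose from 13.1 ± 1.41 to 40.8 ± 7.33 CPM and from 4.41 ± 0.66 to 17.8 ± 5.14 CPM. In that list 4 rose, 2 fell and 4 did not pass (median 0.40). Of 13 VEGF and angiopoietin genes 7 rose, 2 fell and 4 did not pass (median 0.51).

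Of 12 pericyte genes 6 rose, 3 fell and 3 did not pass (median 0.51). Rgs5, a pericyte regulator of G protein signalling, rose from 28.9 ± 8.32 to 114 ± 11.9 CPM (SD, n = 4). Of 4 smooth muscle genes tested 1 rose and 3 fell (median -1.87). Acta2, smooth muscle actin, was at 43.7 ± 16.7 CPM at E12.5 and at 8.59 ± 2.91 CPM at PND0. That list shared its E12.5 excess with the meningeal and red blood cell genes.

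Loss of Dhcr7 left all 10 genes short of the threshold at every stage. By edgeR 0 of 10 were called at each of the 4 stages, with 1, 1, 0 and 2 at an unadjusted p under 0.05 (4.7%, 8.73%, 11.5% and 18% of all genes). DESeq2 also called 0 at each stage, of the 10, 8, 1 and 10 genes to which it gave an adjusted p, where it called 0.13%, 1.18%, 4.93% and 7.19% of all genes with one. At E16.5 Cldn5 alone of the 10 thus had a DESeq2 adjusted p. Among all genes tested the share called was 0.0177%, 0.527%, 0.0462% and 1.44% at these stages in order, so that few of any 10 genes could be called. The median log2 difference of the 10 genes, KO minus WT, was -0.02, 0.05, -0.05 and 0.11 at the 4 stages, beside 0.0031, 0.0015, 0.0002 and -0.00058 for all genes. A p that misses the threshold does not show equal levels. The 95% intervals bound the differences instead: over the 10 genes they reached from -0.78 (Cdh5) to 0.84 (Slco1c1) at E12.5, from -0.47 (Plvap) to 0.47 (Slco1c1) at E14.5, from -0.42 (Slco1c1) to 0.61 (Plvap) at E16.5 and from -0.70 (Kdr) to 0.74 (Plvap) at PND0.

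**Figure D3:**
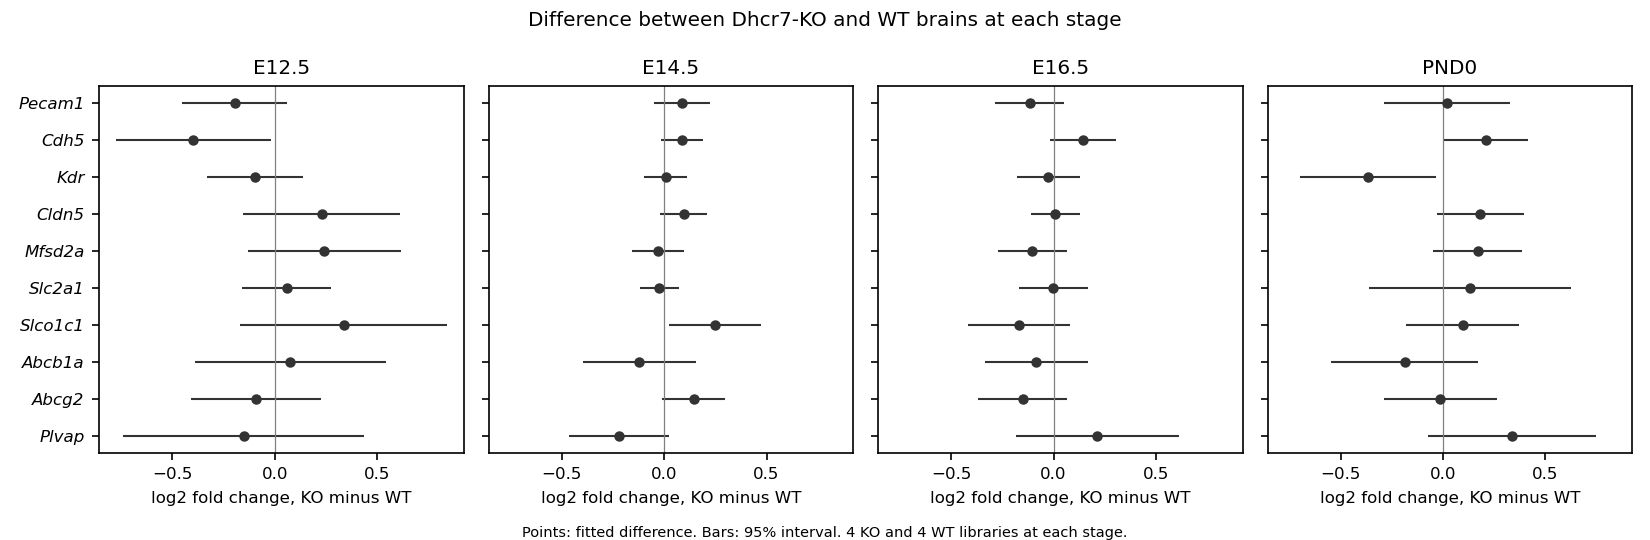
Fitted log2 difference, KO minus WT, of the 10 genes at each stage, with 95% intervals from 4 KO and 4 WT libraries. Intervals were narrowest at E14.5, with a median width of 0.26, and wider at E12.5 and PND0, with 0.75 and 0.59; those that leave out 0 (Cdh5 at E12.5 and PND0, Slco1c1 at E14.5, Kdr at PND0) did not pass after adjustment over all genes.

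Among the 10 genes, Cdh5 had the estimate farthest from 0 at E12.5. The KO libraries were at 38.7, 41.2, 43.4 and 61.3 CPM and the WT libraries at 73.3, 55.0, 58.6 and 53.2 CPM, with 3 of 4 KO libraries below all WT libraries and KO replicate 4 above 3 of them. The difference was -0.40 (95% interval -0.78 to -0.018, unadjusted p = 0.0419, edgeR adjusted p = 0.875). It was -0.28 without E12.5 WT replicate 1 and -0.57 without E12.5 KO replicate 4. At the same stage all 9 meningeal and fibroblast genes and all 9 red blood cell genes had a lower estimate in KO. Of each list 0 passed the threshold by edgeR and by DESeq2. By edgeR 2 of each had an unadjusted p under 0.05, against 4.7% of all genes. All 8 neuron and all 8 neural progenitor genes had a higher estimate in KO. Of 18 pan-endothelial genes 12 had a lower and 6 a higher one. The part of these cell types in the Cdh5 difference was not tested.

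At the later stages the sign of Cdh5 was the opposite. The KO minus WT difference was 0.09, then 0.14, and 0.21 at PND0 (unadjusted p = 0.0495, edgeR adjusted p = 0.277, n = 4 and 4). At PND0 the KO libraries were at 49.1, 62.9, 56.6 and 53.0 CPM and the WT libraries at 46.6, 47.6, 51.4 and 45.5 CPM, which overlap. Whether the KO effect changed with stage was tested over all 32 libraries, and edgeR's quasi-likelihood F test gave an adjusted p = 0.177 for Cdh5 (unadjusted p = 0.0026). It passed with DESeq2 (adjusted p = 0.0466) and without E12.5 KO replicate 4 (edgeR adjusted p = 0.0334), the KO library with the highest Cdh5 at that stage. Only these 2 of 36 alternatives passed, and the edgeR adjusted p reached 0.342 among the others. In that test edgeR called 0 of the 10 genes, against 0.0256% of all genes, and DESeq2 called 1, Cdh5, against 2.24% of all genes. By edgeR 1 of the 10 had an unadjusted p under 0.05, as did 13.5% of all genes. Pecam1 had differences of -0.20, 0.09, -0.12 and 0.02, and KO and WT overlapped at each stage.

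Kdr had the lowest estimate of the 10 at PND0. WT libraries were at 89.2, 81.8, 95.3 and 55.1 CPM and KO libraries at 64.3, 67.9, 66.5 and 51.1 CPM. All 4 KO libraries were below 3 WT libraries, and WT replicate 4 lay among them. The difference was -0.37 (SE 0.15, 95% interval -0.70 to -0.037, edgeR adjusted p = 0.224). Without PND0 WT replicate 4 it was -0.51 and passed (adjusted p = 0.0461). It also passed with no filter on low counts (-0.36, adjusted p = 0.0128) and with all 32 libraries in 1 fit (-0.37, adjusted p = 0.0457). Only these 3 of 16 alternatives passed, and the adjusted p reached 0.724 among the others. With no filter and with all 32 libraries, 1091 and 1205 genes in all were called, against 250. Kdr has a long transcript, 5924 nt, and at PND0 longer transcripts tended to be lower in KO over 17107 genes (Spearman correlation across genes -0.34, a description). With offsets for transcript length the Kdr difference was -0.25 (adjusted p = 0.517). The part of length in the Kdr difference was not tested. At the 3 earlier stages the differences were -0.10, 0.01 and -0.03.

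Plvap at PND0 was the one case among the 10 genes and 4 stages in which KO and WT did not overlap in CPM. Over all genes the share without overlap was 11.9% at PND0, after 2.53%, 4.77% and 6.39% at the earlier stages in order. The KO libraries were at 5.86, 5.28, 6.79 and 5.60 CPM and the WT libraries at 4.41, 5.13, 4.08 and 4.93 CPM. The difference was 0.34 (SE 0.19, 95% interval -0.07 to 0.74, edgeR adjusted p = 0.382). At E14.5 the estimate had the other sign, -0.22 (SE 0.12, edgeR adjusted p = 0.63), with KO at 9.07, 7.20, 7.12 and 7.64 CPM against 7.65 to 10.2 CPM in WT. At E16.5 it was 0.21 (SE 0.19). In KO as in WT, Plvap was highest at E12.5 and lowest at E16.5, with means of 16.6 and 3.72 CPM.

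Of the transporters, Slco1c1 had an unadjusted p under 0.05 at E14.5. Its KO libraries were at 17.0, 15.2, 12.2 and 11.4 CPM and its WT libraries at 11.96, 11.7, 10.2 and 13.4 CPM, with 2 KO libraries above all of WT. The difference was 0.25 (95% interval 0.02 to 0.47, unadjusted p = 0.031, edgeR adjusted p = 0.517). It was 0.34 at E12.5, -0.17 at E16.5 and 0.10 at PND0. The KO means went from 4.70 CPM at E12.5 to 50.8 CPM at PND0. Those of Abcb1a went from 3.75 to 12.98 CPM in KO and from 3.51 to 14.7 CPM in WT, and its differences were 0.08, -0.12, -0.08 and -0.19. Its interval at PND0 was -0.55 to 0.17.

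Cldn5 and Mfsd2a had estimates above 0 at E12.5 and PND0, none past the threshold. Cldn5 had differences of 0.23, 0.10, 0.01 and 0.18 (SE 0.17, 0.057, 0.056 and 0.10), and at E12.5 the KO libraries were at 48.3, 27.5, 30.4 and 34.2 CPM. E12.5 KO replicate 1, the highest, was also the library with the largest ribosomal RNA share, 5.64% of its counts against at most 3.75% in the other libraries. Mfsd2a had differences of 0.24, -0.03, -0.10 and 0.17. Slc2a1 had 0.06, -0.02, -0.00088 and 0.13. At PND0 its KO libraries spread from 74.5 to 148 CPM around 83.6 to 115 CPM in WT, in the group whose red blood cell sum was also the most uneven of that stage. In KO replicates 1 to 4 of PND0, Slc2a1 was at 97.1, 134.8, 147.5 and 74.5 CPM. Pecam1 was at 25.3, 34.5, 35.3 and 23.2 CPM in them, and Cdh5 at 49.1, 62.9, 56.6 and 53.0 CPM. The part of red blood cells or of endothelial content in the Slc2a1 spread was not tested. Abcg2 had -0.09, 0.14, -0.15 and -0.01. For Cldn5, Mfsd2a, Slc2a1 and Abcg2 no unadjusted p was under 0.05 at any stage.

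Set against Pecam1 and Cdh5 in the same library, the genotypes were apart for 1 of 8 genes at E12.5 and for 0 of 8 at the later stages. Over all genes the share was 2.3%, 4.42%, 3.03% and 6.13% in order of stage. The 1 was Kdr, with log2 ratios of 0.68, 0.76, 0.78 and 0.64 in KO and 0.35, 0.53, 0.58 and 0.60 in WT. The reference itself had means of 5.27 in KO and 5.56 in WT at E12.5, and Kdr in CPM overlapped there (56.2 to 75.7 CPM in KO, 66.2 to 70.2 CPM in WT).

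In the wider vascular lists, KO and WT differed in 3 genes that passed the threshold by edgeR. They were 1 of 10 permeable or sprouting genes at E14.5, and 1 of 11 junction genes and 1 of 20 transporters and enzymes at PND0. Of all genes tested 0.527% were called at E14.5 and 1.44% at PND0. Aplnr, the apelin receptor of venous and sprouting endothelium, rose at E14.5. KO libraries were at 43.9, 40.7, 42.3 and 42.0 CPM and WT libraries at 34.4, 34.4, 37.2 and 35.5 CPM, with no overlap (log2 difference 0.26, SE 0.057, edgeR adjusted p = 0.015). It was lost without E14.5 WT replicate 1 or 4 or KO replicate 1 (adjusted p 0.0616 to 0.0885) and with all 32 libraries in 1 fit. The other 9 genes of that list, Plvap among them, did not pass.

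At PND0 Tjp1, which encodes the junction scaffold ZO-1 and is made by many cell types, fell. KO libraries were at 68.4, 63.6, 69.7 and 77.9 CPM and WT libraries at 94.0, 84.9, 118 and 94.6 CPM, with no overlap (-0.49, SE 0.10, edgeR adjusted p = 0.027). It was the 1 of 11 junction genes to pass. The sum of the 11 did not overlap between genotypes at PND0 (874 to 916 CPM in KO, 924 to 982 CPM in WT) or at E14.5 (1277 to 1330 CPM in KO, 1347 to 1359 CPM in WT), a sum of which Ctnnb1 is the largest part. With length offsets Tjp1 gave -0.35 (adjusted p = 0.113). Its call was also lost with the ribosomal RNA covariate (adjusted p = 0.624), without PND0 WT replicate 1 or 3 and without KO replicate 1 or 2 (adjusted p 0.0688 to 0.0891). At PND0 the ribosomal RNA share was 1.80% to 2.79% in WT and 1.16% to 2.09% in KO. Covariate and genotype can thus hardly be told apart there, and with the covariate 2 genes in all were called, against 250 without it. Insr fell by 0.35 on the log2 scale (SE 0.083, edgeR adjusted p = 0.0497), the 1 of 20 transporters and enzymes to pass by edgeR. Among those of the 20 to which it gave an adjusted p, DESeq2 called 2 of 17 at PND0 and 1 of 7 at E16.5. It called 7.19% and 4.93% of all genes with one at these stages. The sum of those 20 at PND0 was 2040 to 2115 CPM in KO and 2134 to 2365 CPM in WT, with no overlap. Lrp1, at a mean of 980 CPM in WT, is its largest part. Of all single genes 4.77% were without overlap at E14.5 and 11.9% at PND0. No such share was computed for sums of lists, of which 17 were compared at each of 4 stages. The Insr call was lost in 7 of 8 fits that left out a library, every one except that without PND0 WT replicate 2 (adjusted p 0.0533 to 0.142 in the 7), and gave -0.18 with length offsets (adjusted p = 0.32). By edgeR 0 of 18 pan-endothelial, 17 Wnt, 13 VEGF and angiopoietin and 12 pericyte genes (11 tested at E12.5) passed at any stage. The pericyte sum was higher in KO at E14.5, without overlap (762 to 784 CPM against 727 to 751 CPM in WT). At the 3 embryonic stages at most 3 genes of a list had an unadjusted p under 0.05 by edgeR, against 4.7%, 8.73% and 11.5% of all genes. The 3 were of the 18 pan-endothelial genes at E14.5, where 16 had a higher and 2 a lower estimate in KO. Their median was 0.11, beside 0.0015 for all genes. DESeq2 called 0 at the embryonic stages too, though at E16.5 it gave an adjusted p to only 0, 3, 3 and 2 genes of these lists. At PND0 it called 1 pan-endothelial and 1 VEGF and angiopoietin gene, against 7.19% of all genes, and 4, 3, 2 and 1 genes had an unadjusted p under 0.05 by edgeR, against 18% of all genes.

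**Figure D4:**
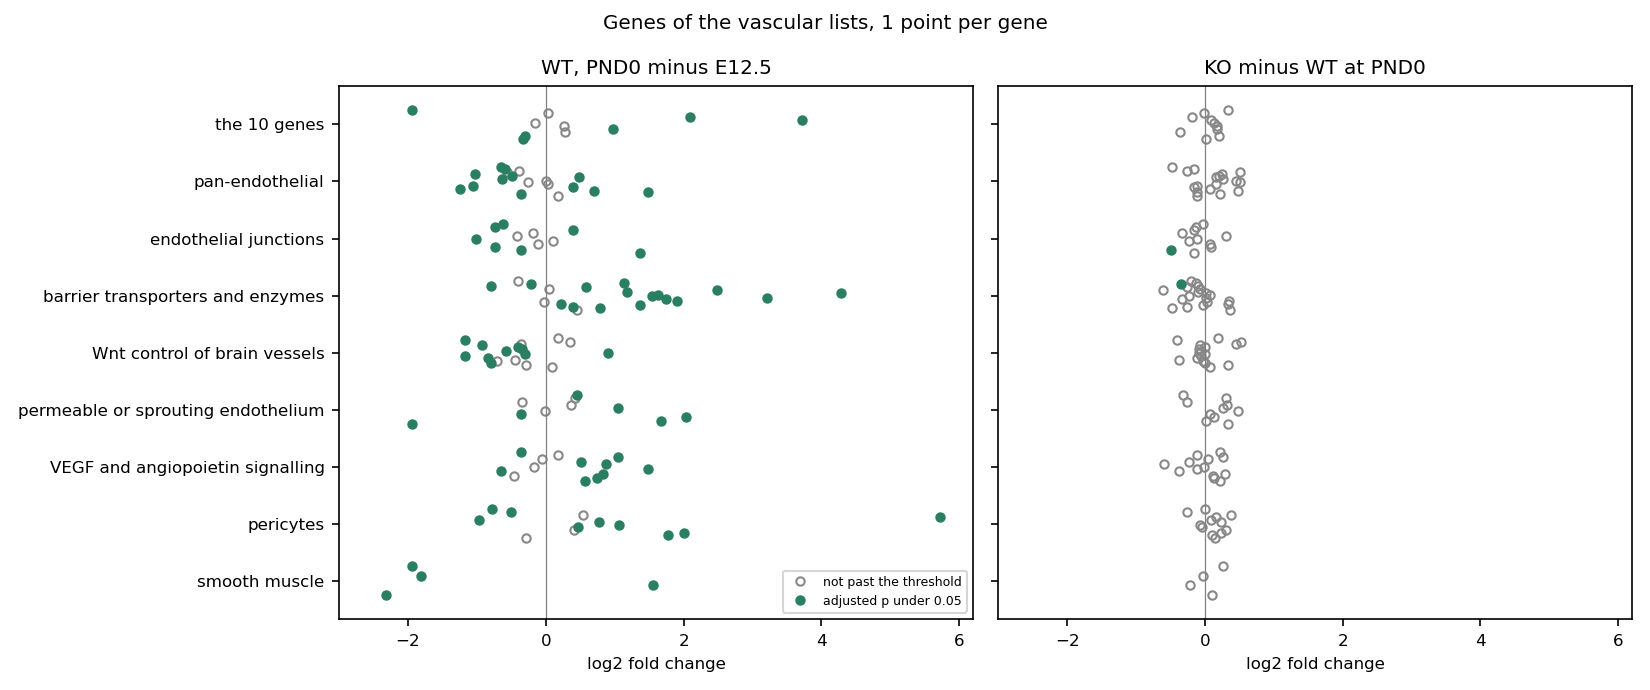
Log2 fold change of each gene of the 10 genes and of 8 vascular lists, for PND0 minus E12.5 in WT (left) and KO minus WT at PND0 (right), on the same axis; filled points passed the threshold and open points did not. The WT course reached from -2.32 (Acta2) to 5.73 (Higd1b, a pericyte gene with a mean of 0.056 CPM at E12.5), while at PND0 the KO difference passed for Tjp1 and Insr only.

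The genes whose levels went most closely with 3 of the 10 across the 32 libraries, after the group means were taken out, are given as a description over the 16065 genes that averaged 1 CPM or more. With Cdh5 these were Sned1 (Pearson r 0.83), the basement membrane gene Nid1 (0.81), Olfml2a (0.80), the growth factor gene Igf2 (0.80) and Sdk1 (0.79). With Slco1c1 they were Prnp (0.71), Cbs, Tmcc2, Prkce and Nsmf (0.67). With Plvap they were Npepl1 (0.76), Mrpl54, Rab34, Gm49172 and Igfbp4 (0.75). Among the 10 genes Pecam1 went with Kdr (0.62), Slc2a1 (0.60) and Cdh5 (0.59), and Cdh5 went against Mfsd2a (-0.61). With group means removed, such values rest on differences between libraries of 1 group, among them the uneven meningeal and blood content at E12.5.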

How the data were processed

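Whole-brain RNA was compared between 4 KO and 4 WT libraries at each of 4 stages. The authors deposited raw counts per gene symbol, 1 table per stage, not normalized; HISAT2, SAMtools, featureCounts, DESeq2 and build mm10 are named in the submitters' processing notes, and the annotation, the strand setting and the versions are not given in the sources used here. Libraries held 13.87 M to 28.32 M counts. None of the 48 pairs of libraries within groups held identical counts, and their chi-square per degree of freedom was 2.90 to 115 where the pair held 20 counts or more.

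Counts were fitted with edgeR 4.0.16 in R 4.3.3 (TMM scaling, filterByExpr with a minimum count of 10 and a minimum total of 15, robust quasi-likelihood fit), 8 libraries per comparison, with Benjamini-Hochberg adjustment over all genes tested and a threshold of 0.05. All 32 libraries entered the F test of the change of the KO effect with stage, with 3 contrasts. CPM use TMM factors over all 32 libraries; log2 CPM use a prior count of 2. Intervals and p-values cover the spread between these libraries. The fitting code was run on simulated counts of independent libraries, which hold no effects of batch, transcript length or composition.

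Gene spans and exon lengths are from GENCODE M21 (GRCm38), and promoters from RefSeq (GRCm38.p6), which matched 7 of the 10 genes. Exons of Slc2a1 overlap the antisense gene Gm12868 (at most 25 counts in a library), and those of Abcb1a overlap Gm42686 (at most 5 counts). The marker lists held 177 symbols, of which 176 are in the tables.

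The 10 genes, the lists and the tests were chosen with earlier results of these data known. Named genes are the 10, Abcb1b, Dhcr7, list genes past the threshold of a genotype comparison (at most 4 by p), at most 3 list genes with the smallest p per WT step, and the 5 genes most like Cdh5, Slco1c1 and Plvap. Flt1 in PND0 WT replicate 4, the risen and fallen members named to complete a list's count and the lowest and highest points of the list plot were named after their values were seen. Alternatives were RLE scaling, no filter on low counts, DESeq2 1.42.0, a replicate block, offsets for transcript length, covariates for sex genes and for the ribosomal RNA gene CT010467.1, all 32 libraries in 1 fit, and each library left out.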

Additional observations from a re-analysis of the deposited data

Results flagged for a closer look

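Over the 80 sets of 4 libraries (10 genes in 8 groups), 4 had a library far from the other 3 by Dixon's criterion, where chance gives about 1 in 20. Pecam1 was at 27.99 CPM in E14.5 WT replicate 1, below 30.97 to 31.23 CPM in the other 3. Kdr was at 70.22 CPM in E12.5 WT replicate 1, above 66.23 to 66.57 CPM. Slco1c1 was at 30.29 CPM in E16.5 KO replicate 2, above 25.32 to 25.74 CPM. Abcg2 was at 18.51 CPM in PND0 WT replicate 2, below 24.1 to 25.14 CPM. Without these libraries the Pecam1 step from E14.5 to E16.5 gave -0.01 in place of 0.04 on the log2 scale, both short of the threshold, and the Kdr step from E12.5 to E14.5 gave 0.18 and passed (edgeR adjusted p = 0.022).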

How the results depend on the processing

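The numbers of the 10 genes called in the 4 WT comparisons and in the KO comparisons at E12.5, E14.5 and E16.5 stayed within 1.5 times the reported count in every alternative. At PND0 1 of the 10 (Kdr) was called with no filter, with all 32 libraries in 1 fit and when libraries were left out (0 to 1). In the test of the KO effect by stage 1 (Cdh5) was called with DESeq2 and when libraries were left out (0 to 1). For the 10 genes one by one, 597 of 640 KO values and 514 of 560 WT values kept their direction and call. These include 11 KO values to which DESeq2 gave no adjusted p (2 at E14.5, 9 at E16.5).

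Counts over all genes moved more. At E12.5 (3 genes) they were 30 with DESeq2, 52 with all 32 libraries and 1 to 5 with a library left out. At E14.5 (94) they were 146 with no filter, 4 with all 32 libraries and 52 (without WT replicate 4) to 155 (without WT replicate 2). At E16.5 (8) they were 233 with no filter, 168 with DESeq2, 4 with the sex covariate, 3 with all 32 libraries and 3 to 14. At PND0 (250) they were 1091 with no filter, 921 with DESeq2, 48 with length offsets, 2 with the ribosomal RNA covariate, 1205 with all 32 libraries and 35 (without WT replicate 3) to 263. By stage (5) they were 11 with no filter, 344 with DESeq2 and 0 to 797, the last without E12.5 KO replicate 1. The cause was not tested.

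With the replicate number as a block the counts were 6 at E12.5, 5 at E16.5 and 0 by stage, Pecam1 at PND0 was -0.002431, and the rise of Plvap from E16.5 to PND0 was lost (adjusted p = 0.0606). No other call of the 10 genes changed. Same-numbered libraries had correlations of -0.276 to 0.303, so the numbers were not taken to pair them.

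Signs changed only in differences that were not called. KO minus WT became -0.01924 (Kdr, E14.5), -0.003143 (Cldn5, E16.5), 0.01983 (Slc2a1, E16.5), -0.1017 (Slco1c1, PND0) and 0.07748 (Abcg2, PND0) with the ribosomal RNA covariate. It became 0.01532 (Kdr, E16.5) and 0.03581 (Slc2a1, E16.5) with the sex covariate. Slc2a1 at E16.5 was also 0.001535 with RLE scaling, 0.004196 with no filter, 0.001555 with DESeq2 and 0.004966 with all 32 libraries. With length offsets Abcg2 became 0.09871 at PND0, and WT steps became -0.03096 and -0.01513 (Cdh5 to E14.5 and to PND0), -0.08839 (Abcg2 from E16.5 to PND0) and -0.1566 (Abcg2 over the span, -0.03491 with no filter).

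With a library left out, KO minus WT ran from -0.01662 to 0.1911 for Abcb1a and -0.003317 to 0.1285 for Slc2a1 at E12.5. At E14.5 it ran from -0.03409 to 0.04509 for Kdr and -0.07131 to 0.01191 for Slc2a1. At E16.5 it ran from -0.07534 to 0.02224 for Kdr, -0.02911 to 0.03258 for Cldn5 and -0.06512 to 0.0552 for Slc2a1. At PND0 it ran from -0.08025 to 0.1254 for Pecam1, -0.02198 to 0.2941 for Slc2a1, -0.05325 to 0.1882 for Slco1c1 and -0.1149 to 0.02619 for Abcg2. In WT, Cdh5 from E12.5 to E14.5 ran from -0.01444 to 0.1753, Pecam1 from E14.5 to E16.5 from -0.013 to 0.05985, and Abcg2 from -0.01298 to 0.09212 at that step and -0.05275 to 0.1269 over the span. Kdr from E12.5 to E14.5 passed in 5 of 14 alternatives. Depth limits Abcb1a, Slco1c1 and Plvap most, at 36 to 53 counts in their lowest libraries.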
